A study of Homo sapiens with 38 samples.

Results

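Cytoplasmic RNA was compared between HCT116 cells that carry knockouts of AGO1 and AGO2 and their wild-type parent. HCT116 is an epithelial cell line from a human colon cancer. The comparison rests on 6 libraries, chosen by their labels, of the 38 samples in the series: 3 from AGO1/2 knockout cells (genotype AGO1-/-, AGO2-/-, passages 9, 10 and 11) and 3 from wild-type cells (passages 27, 28 and 29). All 6 were grown in the same McCoy's 5a medium with serum, received no treatment, and were sequenced as total RNA depleted of ribosomal RNA. The other RNA-seq samples are cytoplasmic libraries of AGO1 knockout, AGO2 knockout and AGO1/2/3 knockout lines and nuclear libraries of the same 5 genotypes, 30 libraries in all, and the remaining 8 samples are eCLIP libraries, not used here. Each genotype was 1 cell line, so that genotype, cell line and passage number cannot be told apart. The knockout lines were edited with CRISPR by a commercial service, and the wild-type line was not edited. The study's methods call the libraries of a line biological replicates. They are passages of the same line, so p-values measure the spread between passages and not between independently edited lines. In such bulk samples, fewer cells of a kind and less RNA per cell cannot be told apart either.

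Argonaute proteins hold a microRNA (miRNA) and use its seed, the bases near its 5′ end, to find complementary sites, mostly in the 3′ untranslated regions (3′ UTRs) of mRNAs. The bound Argonaute recruits a TNRC6 protein, which brings the CCR4-NOT deadenylase and the decapping enzymes to the mRNA, so that cytoplasmic mRNA with such sites is known to be kept low. The family members AGO1 to AGO4 hold overlapping sets of miRNAs, and slicing of a fully paired target is known mainly from AGO2. In colon epithelium, the miR-200 family is known for holding down ZEB1, a repressor of E-cadherin, and the let-7 family for holding down HMGA2.

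Sequencing depth differed between the genotypes. The 3 wild-type libraries held 39476205 to 43281746 estimated reads and the 3 AGO1/2 knockout libraries 77510510 to 79731793. CPM (a gene's reads per 1000000 reads of the library, with library sizes scaled by TMM) were compared with edgeR's quasi-likelihood test, and a gene was called where its Benjamini-Hochberg adjusted p was at most 0.05. TPM, the measure that also divides by transcript length, was used to rank genes by abundance. Where TPM is given by library, it is not scaled between libraries. The wild-type library of passage 29 stood apart from the other wild-type libraries. Its correlation with them on log2 CPM was 0.9897 and 0.9906, against 0.9979 between passages 27 and 28, and 180 of 13232 genes lay more than 2-fold above both other wild-type libraries there. In the other 5 libraries such genes numbered between 1 and 10. Values without passage 29 are therefore given beside the results below that depended on it.

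Of 17605 genes tested, 4207 were higher and 4463 were lower in AGO1/2 knockout cytoplasm, which is 49.2% called, 23.9% higher and 25.4% lower. Without the wild-type library of passage 29, 9047 of 17924 genes were called. Most of the changes were small: 929 genes rose and 1102 fell by at least 2-fold, 211 and 425 by at least 4-fold, and 36 and 154 by at least 16-fold. Protein-coding genes were called in 56.3% of 13620 cases (3677 or 27% higher, 3994 or 29.3% lower) and lncRNA genes in 27.0% of 2501 (352 higher, 323 lower). The counts of the gene lists below are to be read beside these shares. In 51.0% of all genes tested the 3 knockout libraries lay entirely to one side of the 3 wild-type libraries. The split between higher and lower calls depends on the scaling. On log2(TPM + 1) without scaling between libraries, 13.4% of the calls were higher (1355 higher, 8778 lower), against 48.5% on TMM-scaled counts, and the median of all genes moved from −0.01 to −0.20. With TMM scaling of the same TPM, 48.8% of the calls were higher (3952 higher, 4142 lower) and the median was −0.01. List medians below on unscaled log2(TPM + 1) stand beside −0.20 for all genes, and those on TMM-scaled log2(TPM + 1) beside −0.01. On unscaled log2(TPM + 0.1) the median of all genes was −0.36, so the −0.20 depends on the constant added. It is therefore only a rough reference for lists of abundant genes. The composition of the libraries differed alongside. Protein-coding genes took 44.5% to 50.2% of TPM in wild-type and 40.7% to 44.2% in knockout libraries, while the small nuclear RNA RN7SK took 57897 to 59060 TPM and 91246 to 116053 TPM. The part of composition in the called changes was not tested.

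The targeted genes gave different pictures at the RNA level. AGO1 (chr1:35869808-35930532, plus strand, GRCh38) stood at 14.4, 13.7 and 10.7 TPM in the wild-type libraries and at 0.854, 1.01 and 0.901 TPM in the knockout libraries. The groups did not overlap on this unscaled TPM. On TMM-scaled counts AGO1 RNA fell 9.12-fold, from a mean of 153 CPM to 16.8 CPM (log2 fold change −3.19, SE 0.0667, edgeR adjusted p = 1.4e-13). Mean AGO1 levels were 12.9 ± 1.97 TPM in wild-type and 0.92 ± 0.078 TPM in knockout cells (SD, n = 3 each; two-sided exact permutation p = 0.1, the smallest that 3 against 3 libraries can give). The AGO1 transcript ENST00000373204.5 kept 952, 970 and 1185 estimated reads in the knockout libraries, against 4952, 5411 and 4915 in wild-type. These reads are not scaled for depth, which was higher in the knockout libraries.

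AGO2 (chr8:140520156-140635633, minus strand) remained abundant as RNA. It stood at 39.8, 37.1 and 31.1 TPM in wild-type and at 29.2, 28.6 and 28.9 TPM in AGO1/2 knockout libraries, and at 421, 409 and 362 CPM and 473, 534 and 469 CPM. On TPM the knockout libraries were the lower ones and on CPM the higher ones, without overlap on either scale. The fitted difference was +0.31 on counts (SE 0.0722, edgeR adjusted p = 0.00266), 0.10 once counts were scaled by transcript length (adjusted p = 0.395) and −0.30 by limma on unscaled log2(TPM + 1) (adjusted p = 0.0249). The RNA level therefore says nothing of the AGO2 protein, and the edited bases were not analysed here. The study itself examined AGO proteins in its knockout lines, AGO1/2 among them, by western blot, and refers to an earlier report for the sequenced edits. AGO3 and AGO4 were called slightly higher on counts, by 0.37 (adjusted p = 8.8e-04) and 0.65 (adjusted p = 0.00262). In length-scaled units AGO3 was at 8.39 ± 1.55 TPM in wild-type and 8.48 ± 0.637 TPM in knockout cells. AGO4 was at 1.60 ± 0.186 and 1.99 ± 0.667 TPM, and the libraries of the genotypes overlapped for both genes.

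Among 15 tested factors that make miRNAs or carry out silencing, 2 rose and 6 fell (13.3% and 40%), with a median of −0.18 against −0.01 over all genes. DICER1, the enzyme that cuts miRNA precursors and itself a let-7 target, stood at 126, 128 and 77.2 CPM in wild-type and 192, 202 and 188 CPM in knockout libraries, an increase of 0.82 (adjusted p = 2.2e-04). Its partner PRKRA rose by 0.43, although on unscaled TPM it was at −0.01. XPO5, the exporter of precursor miRNAs, fell from a mean of 117 CPM to 76.1 CPM (−0.63 on counts, adjusted p = 9.3e-06). Its unscaled TPM went from 18.9, 18.7 and 14.4 to 9.28, 8.24 and 9.32. The RNase DIS3L2 (−0.43), the uridylating enzymes TUT7 (−0.40) and TUT4 (−0.17) and the nuclear processor DROSHA (−0.38) also fell, the TUT4 call being lost without any 1 of 4 libraries. LIN28B, an inhibitor of let-7 maturation, fell by 1.88, from a mean of only 0.192 CPM in wild-type to 0.0508 CPM in knockout libraries. DGCR8 (0.04), TARBP2 (0.29), TNRC6A (0.17), TNRC6B (−0.18), TNRC6C (−0.01), TENT2 (−0.19) and ZSWIM8 (−0.27) were not called.

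Of 23 deadenylation and decapping factors, which carry out the decay that Argonaute starts, 5 rose and 10 fell, with a median of −0.13. That is 21.7% and 43.5%, against 27% and 29.3% of all protein-coding genes tested. PATL1, a scaffold of the decapping complex, stood at 84.1, 86.1 and 67.0 CPM in wild-type and 147, 163 and 122 CPM in knockout libraries (+0.87, adjusted p = 9.2e-06). The deadenylase CNOT7 (+0.64) and the decapping enzyme DCP2 (+0.62) rose too. The exonuclease XRN1 fell by 0.53, and CNOT10 and CNOT3, noncatalytic CCR4-NOT subunits, by 0.46 and 0.45.

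Several genes with the largest increases were barely present in wild-type cytoplasm. MYBPH, a myosin-binding protein, had 5, 0 and 0 estimated reads in the wild-type libraries and 814, 448 and 1147 in the knockout libraries. DCLK1, a microtubule-associated kinase known as a tuft cell marker, rose from 0.852, 0.786 and 1.93 CPM to 77.9, 96.7 and 62.4 CPM. The groups were far apart, and the fitted change was 66.2-fold (log2 fold change 6.05, SE 0.26, adjusted p = 4.4e-10). SLC2A3, a glucose transporter, rose 17.4-fold, from 2.85, 3.10 and 5.92 CPM to 63.0, 103 and 41.3 CPM. VIM, the mesenchymal intermediate filament protein, rose 9.88-fold, from 3.26, 2.34 and 4.13 CPM to 31.6, 33.0 and 31.5 CPM (3.30, SE 0.146, adjusted p = 5.3e-10). All 3 knockout libraries agreed closely for VIM and spread more for SLC2A3. The receptor kinase AXL rose 7.63-fold, from 42.0, 39.5 and 85.1 CPM to 426, 532 and 313 CPM (2.93, SE 0.263, adjusted p = 5.7e-07). The secreted matrix protein ECM1 (3.64), the transmembrane collagen COL13A1 (3.55, and 4.47 without the wild-type library of passage 29), the lipase LIPG (3.20), the ephrin EFNA5 (3.09) and the growth factor FGF18 (2.93) rose as well, as did HBA2 (2.94), an alpha globin that shares reads with its near-identical copy HBA1 and is therefore uncertain.

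The largest decreases reached further. The annexin ANXA10 fell from 1057, 1038 and 1221 estimated reads to 0, 0 and 1, a ratio of 5503 over the summed libraries with a 95% counting interval of 987 to 217403. ANK3, which anchors membrane proteins to the cytoskeleton, fell from 418, 590 and 597 reads to 1, 0 and 0 (ratio 2663, interval 477 to 105260). Both genes were thus close to undetected in every knockout library, and the intervals cover counting error only. TTN, which encodes the muscle protein titin, went from 693, 958 and 820 reads to 0, 5 and 0.

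Other strong decreases kept a measurable remainder. MAL2, a protein of apical transport in epithelia, fell 87.4-fold, from 143, 144 and 158 CPM to 1.76, 1.57 and 1.76 CPM (−6.45, SE 0.128, adjusted p = 8.5e-14). Its 3 libraries of each genotype were tightly grouped. GALNT3, which starts mucin-type glycosylation, fell 114-fold, the glutamate transporter SLC1A3 109-fold and ZNF704 86.9-fold. The microtubule protein MAP2 (−5.25), PAG1 (−5.24), the transcription factor MEF2C (−5.22), CADPS2 (−4.98) and the complement receptor CR2 (−4.91) completed the 12 largest decreases. MAL2, ZNF704 and PAG1 lie on chromosome 8, which is described further on.

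**Figure D1:**
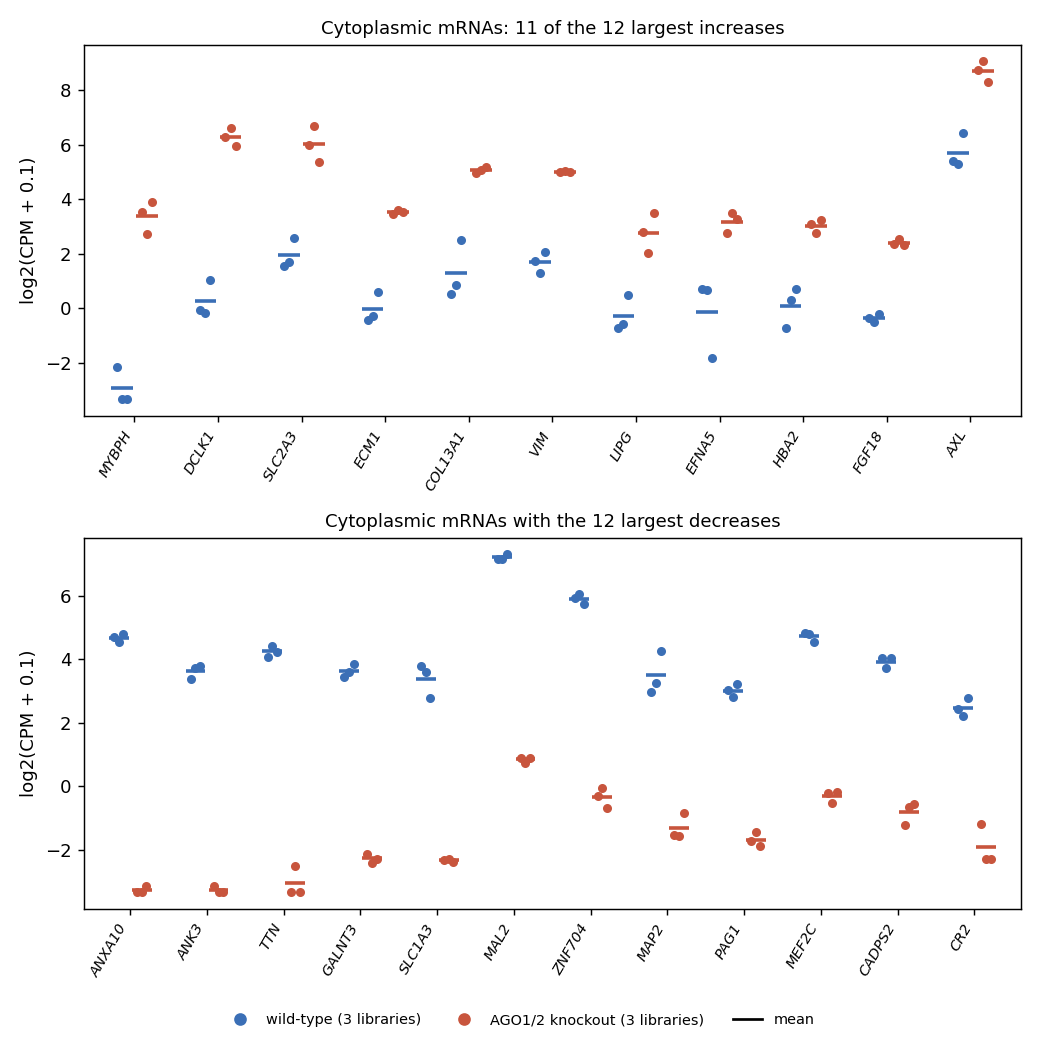
Log2(CPM + 0.1) of 11 of the 12 protein-coding genes with the largest increases (upper panel) and of the 12 with the largest decreases (lower panel) in each of the 3 wild-type libraries (blue points) and the 3 AGO1/2 knockout libraries (red points), with group means as lines. The groups do not overlap for any gene shown, which was a condition of the choice, and ANXA10, ANK3 and TTN lie at or near 0 reads in the knockout libraries.

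Among abundant mRNAs with changes of at least 2-fold, the ferritin genes, which encode the subunits of the iron store, moved together. FTH1 rose from 1111, 1088 and 1328 CPM to 2482, 2952 and 2131 CPM (1.10, adjusted p = 1.7e-06) and FTL from 770, 766 and 760 CPM to 1962, 2199 and 1383 CPM (1.27, adjusted p = 2.0e-06). S100A10, the partner of annexin A2, rose by 1.40. FABP5, a fatty acid binding protein on chromosome 8, fell by 1.74, from 222, 211 and 145 CPM to 57.7, 66.2 and 49.3 CPM, and SAT1, the enzyme that acetylates polyamines, fell by 2.48. The EGF receptor ligand AREG stood at 229, 216 and 847 CPM in wild-type and 160, 166 and 175 CPM in knockout libraries. Its fitted change of −1.37 became −0.42, with no call, without the wild-type library of passage 29. Among lncRNAs, VIM-AS1 (4.0), LINP1 (3.90), SNAI3-AS1 (2.17) and LINC03061 (2.0) had the largest increases and MSRB3-AS1 (−4.90), LNCAROD (−4.0), LINC01405 (−2.99) and ENSG00000261116 (−2.21) the largest decreases. The library kit kept strand, but whether the counting used it is not given in the sources used here, so the antisense genes may hold reads of their partners.

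Most genes of epithelial junctions fell. Of 22 genes of epithelial junctions and keratins 15 fell, none rose and 7 were not called, with a median of −0.65 and medians of −0.66, −0.89 and −0.52 in the 3 knockout libraries relative to the wild-type mean. CDH1, which encodes E-cadherin, stood at 54.0, 60.3 and 97.8 CPM in wild-type and at 6.81, 6.28 and 12.0 CPM in knockout libraries, an 8.45-fold decrease (−3.08, SE 0.268, adjusted p = 4.1e-07). ESRP1, an epithelial splicing regulator, fell 6.16-fold, from 150, 155 and 231 CPM to 26.9, 23.0 and 37.0 CPM (−2.62, adjusted p = 3.3e-08). EPCAM, an epithelial adhesion molecule, fell from 235, 237 and 213 CPM to 91.1, 103 and 99.8 CPM (−1.22, adjusted p = 6.3e-09). For these 3 genes every knockout library lay below every wild-type library. The tight junction gene CLDN7 (−2.34), the desmosomal PKP3 (−2.19) and the apical trafficking gene RAB25 (−1.70) also fell. GRHL2, a transcription factor of epithelial identity, had 73, 49 and 142 reads in wild-type and 0 in each knockout library, at least 146-fold lower when set against a floor of 3 counts over the group.

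The keratins of simple epithelia did not follow. KRT8 (0.05), KRT18 (0.02) and KRT19 (0.33) were not called, nor were CLDN3 (−0.10) and CLDN4 (0.01). KRT8 stood at a mean of 993 CPM in wild-type and 1028 CPM in knockout cytoplasm, and KRT18 at 724 and 734 CPM. GRHL2 and ESRP1 lie on chromosome 8. Without the genes of chromosome 8 from 70 Mb on, 13 of 20 epithelial genes fell and none rose, with a median of −0.58. Without the wild-type library of passage 29 the count was 15 lower and 1 higher, with a median of −0.53.

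Mesenchymal genes were called in both directions, at shares near those of all protein-coding genes tested (27% higher and 29.3% lower). Of 15 listed, 10 were tested, 3 rose and 3 fell (30% each), with a median of 0.11 that was −0.09 on TMM-scaled and −0.15 on unscaled log2(TPM + 1). ZEB1, the repressor of E-cadherin, rose 4.88-fold, from 5.31, 4.98 and 4.70 CPM to 26.1, 24.5 and 22.5 CPM (2.29, SE 0.0955, adjusted p = 3.6e-10). Together with VIM and AXL it made up the 3 that rose. FN1, which encodes fibronectin, fell by 0.81 (−0.53 without the wild-type library of passage 29), SNAI1 by 0.73, from 9.35, 8.08 and 10.9 CPM to 5.68, 5.96 and 5.41 CPM, and SNAI2 by 2.66 from a mean of 0.216 CPM. The last 2 encode repressors of E-cadherin like ZEB1, and they lay in the opposite direction to it. CDH2, which encodes N-cadherin, was too low to be tested.

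The E-box that ZEB and SNAI proteins bind was looked up in the 300 bases around the start site (250 before, 50 after) of RefSeq promoters on GRCh38.p14, as the letters CACCTG or CAGGTG on either strand. It was present in 20.6% of 27195 promoters and in 18.9% of the 11748 tested genes with an entry. Of the 11 epithelial genes with an entry 5 held it, namely CLDN3, TJP1, OCLN, DSP and RAB25. RAB25 and DSP, which fell by 1.70 and 0.81, are shown with the match in capitals, at chr1:156061109-156061134 (plus strand, 41 bases before the start site) and chr6:7541576-7541601 (plus strand, 85 bases before it). A further match lies 37 bases after the start site in RAB25 and 178 bases before it in DSP. CLDN3, which was not called, is at chr7:73770221-73770244 (minus strand). A match of these letters is a description of the sequence and says nothing of binding.
RAB25: tctctccaccCACCTGggccccaggt
DSP: agaaaccggcCAGGTGtggcctaggc
CLDN3: aagccacaggCAGGTGcaggcgca

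The markers bear on what the cells are. Of 18 colorectal epithelial markers 7 were high enough to be tested, 1 rose and 4 fell, and 4 had no read in any of the 6 libraries. CDX2, the transcription factor of intestinal identity, stood at 14.9, 15.1 and 11.4 CPM in wild-type and 11.2, 11 and 11.3 CPM in knockout libraries (−0.31, adjusted p = 0.0197). VIL1, which encodes villin, had at most 3 reads in any library. Of 7 fibroblast markers 2 were tested and neither was called, and 4 had no read in any library. Of 5 endothelial markers KDR fell from 6 to 14 reads to 2 to 5 reads, and of 6 immune markers LYZ, which encodes lysozyme, rose from 0.0244, 0.18 and 0.115 CPM to 2.28, 1.97 and 3.92 CPM, while PTPRC, the common leukocyte gene, had at most 1 read in any library. The summed level of the 6 immune markers was 0.195 to 0.252 CPM in wild-type and 1.97 to 3.93 CPM in knockout libraries, where nearly all of it was LYZ.

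The known targets of 4 miRNA families abundant in colon cells were examined next. Their mature sequences from RefSeq are shown with the seed, bases 2 to 8, in capitals, because the sites below are its complement followed by an A.
hsa-let-7a-5p: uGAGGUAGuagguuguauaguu
hsa-miR-17-5p: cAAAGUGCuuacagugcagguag
hsa-miR-200b-3p: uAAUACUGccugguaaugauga
hsa-miR-21-5p: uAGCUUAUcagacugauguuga

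Of the 17 listed targets of the miR-200 family 12 were tested, 8 rose and 2 fell, with a median of 0.47 (0.46 on TMM-scaled and 0.09 on unscaled log2(TPM + 1)). ZEB1 was the largest of them. The phosphatase PPM1F rose from 21.2, 22.3 and 18.5 CPM to 47.5, 51.2 and 44.6 CPM (1.21, adjusted p = 2.2e-08) and the actin regulator CFL2 from 69.0, 64.7 and 54.9 CPM to 101, 114 and 96.9 CPM (0.73, adjusted p = 1.9e-05). The polycomb gene BMI1 (0.71), the RNA-binding gene QKI (0.70) and the secretion gene SEC23A (0.52) rose as well, while FN1 and FHOD1 (−0.26) fell. The 8-base miR-200b match CAGTATTA occurs 3 times in the 3′ UTR of ZEB1 (chr10:31527623-31527650, chr10:31528497-31528524 and chr10:31528567-31528594, plus strand), 2 times in that of QKI (chr6:163573224-163573251 and chr6:163573292-163573319, plus strand) and once in that of CFL2 (chr14:34712466-34712493, minus strand). Each is shown with 10 flanking bases on either side and the match in capitals.
ZEB1 first match: tttatcttatCAGTATTAtcactcttat
ZEB1 second match: ttttacctatCAGTATTAttttatttct
ZEB1 last match: tcaaacctggCAGTATTAatacccttct
QKI first match: ccttggttctCAGTATTAtcattcttta
QKI second match: ttttttctgaCAGTATTAtgtaattttt
CFL2: caacttttttCAGTATTAtttatagttg

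Of 19 tested targets of the miR-17 family 12 rose and 3 fell, with a median of 0.42 (0.42 on TMM-scaled and 0.03 on unscaled log2(TPM + 1)). ZBTB4, a transcriptional repressor, rose from 36.9, 39.5 and 42.2 CPM to 85.2, 83.7 and 91.7 CPM (1.14, adjusted p = 3.6e-08). The transcription factor RUNX1 (0.82) and the TGF-beta receptor TGFBR2 (0.77) followed. CDKN1A, which encodes the cell cycle inhibitor p21, stood at 96.7, 102 and 218 CPM in wild-type and 244, 213 and 206 CPM in knockout libraries. It was called at 0.67, and at 1.16 without the wild-type library of passage 29. TNFRSF21 fell by 0.79, while the small decreases of STAT3 (−0.31) and NCOA3 (−0.27) lost their call without that library. The match GCACTTTA lies in the 3′ UTR of ZBTB4 at chr17:7460063-7460090 (minus strand) and in that of TGFBR2 at chr3:30691857-30691884 (plus strand). It is not in the CDKN1A 3′ UTR examined.
ZBTB4: cttgtttctgGCACTTTAgaaaaactgc
TGFBR2: aataacatttGCACTTTAttaatgcctg

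The let-7 targets went both ways. Of 19 tested, 7 rose and 4 fell (36.8% and 21.1%), with a median of 0.18 that was 0.13 on TMM-scaled and −0.14 on unscaled log2(TPM + 1). HMGA2, a chromatin protein of early development, stood at 271, 306 and 230 CPM in wild-type and at 585, 716 and 706 CPM in knockout libraries, a 2.48-fold increase (1.31, SE 0.102, adjusted p = 1.5e-07). CCND1, which encodes cyclin D1, rose from 729, 661 and 626 CPM to 1553, 1813 and 1426 CPM (1.25, adjusted p = 1.0e-07). The oncogene MYC fell from 323, 298 and 318 CPM to 117, 118 and 130 CPM (−1.36, adjusted p = 5.8e-09). IGF2BP3 fell by 1.13 and E2F5 by 0.93, and LIN28B, given above, is the last of the 4 that fell. The match CTACCTCA lies in the 3′ UTR of HMGA2 at chr12:65963303-65963330 (plus strand) and 3 times in that of IGF2BP1, of which the first is at chr17:49051066-49051093 (plus strand). IGF2BP1, an mRNA-binding protein of embryonic tissue, rose by 0.64 from a mean of 1.10 CPM to 1.72 CPM. The CCND1 3′ UTR examined holds no such match.
HMGA2: cgttcgatttCTACCTCAgcagcagttg
IGF2BP1 first match: gcgaagtaaaCTACCTCAaggtatgaag

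Among 17 tested miR-21 targets 7 rose and 7 fell (41.2% each), with a median of 0.25 that was 0.22 on TMM-scaled and −0.15 on unscaled log2(TPM + 1). The GTPase RHOB (0.99), the TGF-beta inhibitor SMAD7 (0.96) and RECK (0.83), an inhibitor of matrix proteases, had the largest increases. SATB1 (−2.79) and SPRY1 (−1.59) fell. PDCD4, an inhibitor of translation and among the best known miR-21 targets, stood at 24.1, 26.8 and 59.1 CPM in wild-type and 15.6, 11.4 and 24.7 CPM in knockout libraries. The groups overlapped, since 24.7 lies above the lowest wild-type value, and the change of −1.08 became −0.55, with no call, without the wild-type library of passage 29. The match ATAAGCTA is in the 3′ UTR of PDCD4 (chr10:110898320-110898347, plus strand), shown with the match in capitals.
PDCD4: gaatattctaATAAGCTAccttttgtaa

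Seed matches were then counted across all genes. For 13432 tested protein-coding genes with an annotated 3′ UTR, the median log2 fold change of genes with the 8-base match of a family was set against that of genes without it. The differences were small. Among 12 families known from colon epithelium they ran from −0.05 to 0.09 and 7 were above 0, and among 7 families known from other tissues they ran from −0.05 to 0.05 and 4 were above 0. The miR-17 family had the highest value, 0.09, with 0.050, 0.10 and 0.104 in the 3 knockout libraries. Of its 729 genes with a match 35.3% were higher and 26.2% lower, against 27.1% and 29.6% of all genes with a 3′ UTR. The miR-19 family, encoded beside miR-17 on chromosome 13, followed at 0.06 and miR-92 of the same cluster stood at 0.04. The let-7 (0.02), miR-200bc (0.03) and miR-141/200a (0.01) families lay close to 0, and miR-21 (−0.02), miR-30 (−0.03), miR-27 (−0.05) and miR-26 (−0.05) below it. The liver family miR-122 and the muscle family miR-133 stood at 0.05 each, above most of the colon families. The genes with a match have longer 3′ UTRs than most: 525 of the 729 genes with a miR-17 match had one of over 2091 bases, where the difference was 0.08.

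**Figure D2:**
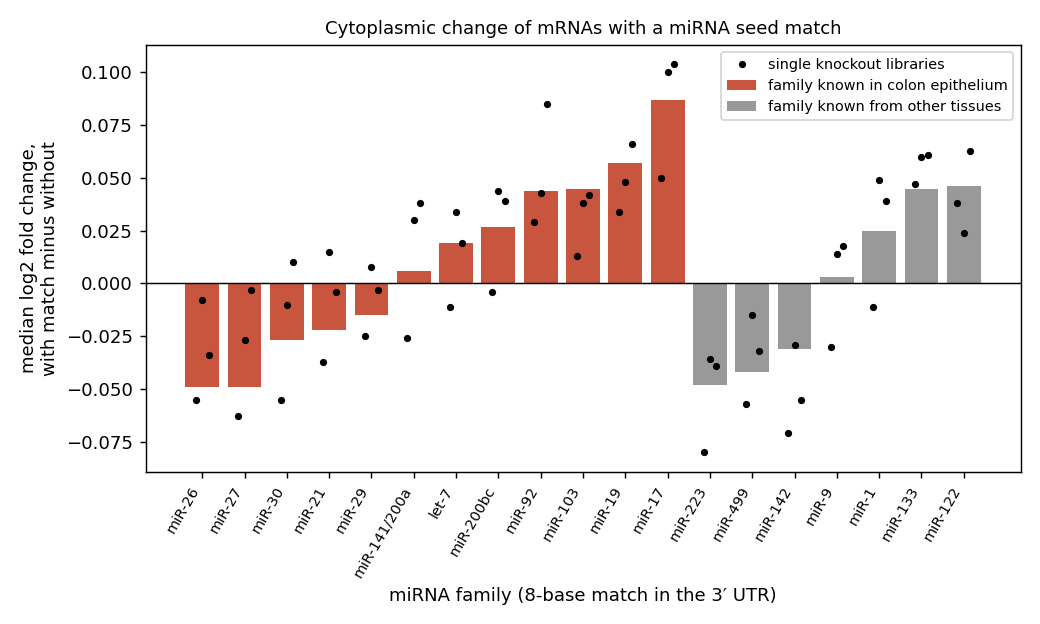
Median log2 fold change (AGO1/2 knockout over wild-type cytoplasm) of genes with the 8-base seed match of a family in the 3′ UTR minus that of genes without it, for 12 families known from colon epithelium (red bars) and 7 known from other tissues (grey bars). Black points are the 3 single knockout libraries, and miR-17 at 0.09 is the highest bar while the 2 kinds of family overlap in range.

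Most sterol genes rose. Of 24 genes of cholesterol synthesis and uptake 17 rose, 1 fell and 6 were not called, with a median of 0.62 (0.45 on TMM-scaled and 0.07 on unscaled log2(TPM + 1)). The 3 knockout libraries had medians of 0.62, 0.30 and 0.98, and leaving out 1 library at a time gave 13 to 19 genes higher. INSIG1, which retains the sterol sensor in the endoplasmic reticulum, rose 7.50-fold, from 18.0, 23.9 and 19.7 CPM to 169, 107 and 185 CPM (2.91, SE 0.19, adjusted p = 2.8e-08). HMGCS1 (0.92) and SREBF2 (0.59), which encode an early enzyme of the pathway and its transcription factor, rose less. SQLE, which encodes the epoxidase of the pathway, was called lower at −0.34 and lost that call without the knockout library of passage 9 or that of passage 10. The sterol response element TCACCCCAC or GTGGGGTGA was present in 0.427% of 27195 promoters and in 0.349% of the 11748 tested genes with an entry. Of the 18 cholesterol genes with an entry 1 held it, SREBF2, at chr22:41832962-41832990 (plus strand, 133 bases before the start site), shown with the element in capitals.
SREBF2: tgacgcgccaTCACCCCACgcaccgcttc

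The subunits of the replicative helicase were lower in cytoplasm. Of 27 cell cycle and replication genes 3 rose, 12 fell and 12 were not called, with a median of −0.32 (−0.30 on TMM-scaled and −0.70 on unscaled log2(TPM + 1)). All 6 helicase subunits, MCM2 to MCM7, were called lower, with a median of −0.74. MCM7 fell from 349, 354 and 312 CPM to 205, 175 and 191 CPM (−0.83, adjusted p = 1.3e-05) and MCM6 from 213, 212 and 162 CPM to 113, 101 and 110 CPM (−0.85, adjusted p = 1.3e-05). MCM4 was less sure at −0.79, its call being lost without any 1 of 4 libraries. BIRC5 (0.40), TYMS (0.36) and CCNB2 (0.27) were called higher, but stood at −0.02, −0.08 and −0.15 on unscaled log2(TPM + 1), and TYMS and CCNB2 lost their call without the wild-type library of passage 29.

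HOX genes, which set positional identity, were mostly higher. Of 39 listed, 28 were tested, 18 rose and 2 fell, with a median of 0.74 (0.32 on TMM-scaled and 0.15 on unscaled log2(TPM + 1)). HOXB8 rose from 24.4, 23.7 and 20.7 CPM to 76.4, 77.5 and 66.2 CPM (1.68, adjusted p = 2.8e-09), HOXC6 by 1.70 and HOXC4 by 1.99. HOXD8 fell by 1.14, and its change was −0.75 without the wild-type library of passage 29.

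The mitochondrially encoded mRNAs took a larger share of the knockout libraries. They held 9.58% to 9.98% of reads in wild-type and 15.4%, 18.2% and 12.7% in knockout libraries, so the groups did not overlap but the knockout libraries differed among themselves. Of 13 such mRNAs 11 rose and 1 fell, with a median of 0.78 (0.76 on TMM-scaled and 0.35 on unscaled log2(TPM + 1)). MT-CO3, a subunit of cytochrome c oxidase, rose from 11482, 11404 and 12655 CPM to 24191, 28950 and 18935 CPM (1.02, adjusted p = 7.4e-06). MT-ND6, which is encoded on the opposite strand to the others, was called lower at −0.93 and lost that call without the wild-type library of passage 28. Cytosolic ribosomal protein genes were nearly level, with 32 of 81 higher, 7 lower and a median of 0.09 that was 0.09 on TMM-scaled and −0.31 on unscaled log2(TPM + 1). Without the wild-type library of passage 29 the counts were 44 higher and 6 lower, with a median of 0.16. RPLP1 rose by 0.66 and RPL7 and RPL8, both on chromosome 8, fell by 0.63 and 0.60.

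Several signalling lists had members that moved far in both directions. In the TGF-beta and BMP pathway 9 of 20 genes rose and 5 fell (45% and 25%), with a median of 0.17. It was 0.14 on TMM-scaled and −0.12 on unscaled log2(TPM + 1), and 0.37 on counts without the wild-type library of passage 29. The ligand TGFB2 rose 6.97-fold, from 0.925, 1.03 and 0.964 CPM to 5.77, 6.85 and 7.80 CPM (2.80, adjusted p = 1.1e-09). LTBP1, which holds latent TGF-beta in the matrix, fell 18.0-fold, from 9.64, 10.1 and 13.2 CPM to 0.485, 0.691 and 0.642 CPM (−4.17, adjusted p = 1.8e-09). Ligand and tether thus lay at opposite ends. The matricellular gene CCN2 rose by 1.95, and the decoy receptor BAMBI and the target ID1 fell by 1.01 and 0.55. Among 18 genes of ERK output 1 rose and 7 fell (5.56% and 38.9%). FOSL1 rose by 1.31, from 104, 93.5 and 127 CPM to 264, 331 and 209 CPM, the ETS factor ETV1 fell by 1.53 and the immediate early gene EGR1 by 2.24 (−1.43 without the wild-type library of passage 29). Without that library 6 of these genes were called higher and 7 lower.

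The integrated stress list depended on 1 library. Of 19 genes 3 rose and 5 fell (15.8% and 26.3%), with a median of −0.55, which became 0.17 without the wild-type library of passage 29, with 4 higher and 3 lower. Leaving out 1 library at a time gave 3 to 10 genes lower. ASNS, which makes asparagine and is a target of ATF4, stood at 75.6, 80.5 and 367 CPM in wild-type and 25.4, 16 and 40.0 CPM in knockout libraries. The fitted change was −2.68, and −1.52 without that library. TRIB3, at 25.9, 26.4 and 164 CPM in wild-type, had a change of −1.63 that became −0.17 with no call. PHGDH, the first enzyme of serine synthesis, fell by 1.71, and DNAJB9, a chaperone of the endoplasmic reticulum, rose by 0.89.

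The remaining lists are given by their counts, beside 27% higher and 29.3% lower among all protein-coding genes tested. The p53 list (25.9% and 22.2%) and the NRF2 list (26.7% each) lay near those shares. Interferon-stimulated genes counted 9 higher and 3 lower of 25 (median 0.28, or −0.10 on unscaled log2(TPM + 1)), p53 targets 7 and 6 of 27 (0.06, or −0.29), Wnt targets 5 and 6 of 15 (0.10, or −0.24), extracellular matrix genes 3 and 6 of 16 (−0.19, or −0.27), NRF2 targets 4 and 4 of 15 (−0.05, or −0.28) and glycolysis and hypoxia genes 7 and 5 of 21 (−0.04, or −0.41). On TMM-scaled log2(TPM + 1) these medians were 0.06, 0.01, 0.06, −0.07, −0.06 and 0.00, in the same order. Without the wild-type library of passage 29 the interferon list counted 12 higher and 1 lower (median 0.32) and the p53 list 10 and 4 (0.02), while the medians of the NRF2 and glycolysis lists turned to 0.08 and 0.18. Within the glycolysis list ENO1, the enolase, fell from 1470, 1392 and 1526 CPM to 975, 884 and 938 CPM (−0.65, adjusted p = 5.6e-06), and the hexokinase HK2 fell by 1.10 while the transporter SLC2A3 rose. The p53 target PLK2 rose by 0.97 and the Wnt target TCF7 by 0.69. GDF15 was called lower at −1.69 but at −0.33, with no call, without the wild-type library of passage 29. Replication-dependent histone genes counted 1 higher and 7 lower of 54, and 0 and 22 without that library. In the other direction, the matrix list counted 6 higher and 4 lower without it, with a median of 0.01.

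**Figure D3:**
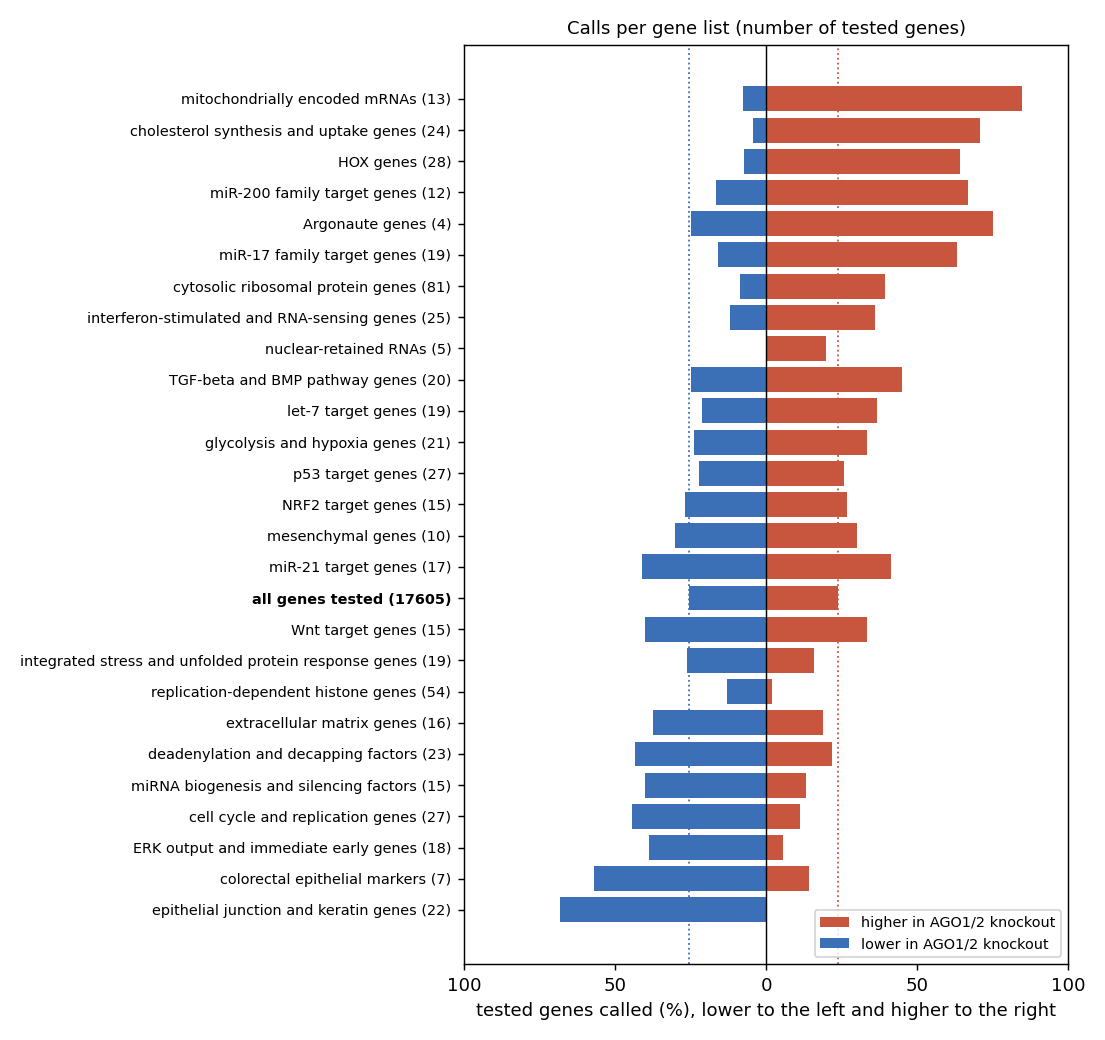
Percent of the tested genes of each list called higher (red, to the right) and lower (blue, to the left) in AGO1/2 knockout cytoplasm, with the number tested in parentheses and dotted lines at the values for all 17605 genes (23.9% and 25.4%). Mitochondrial mRNAs, of which 84.6% were higher, reach furthest to the right and epithelial junction and keratin genes, with 68.2% lower, furthest to the left.

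**Figure D4:**
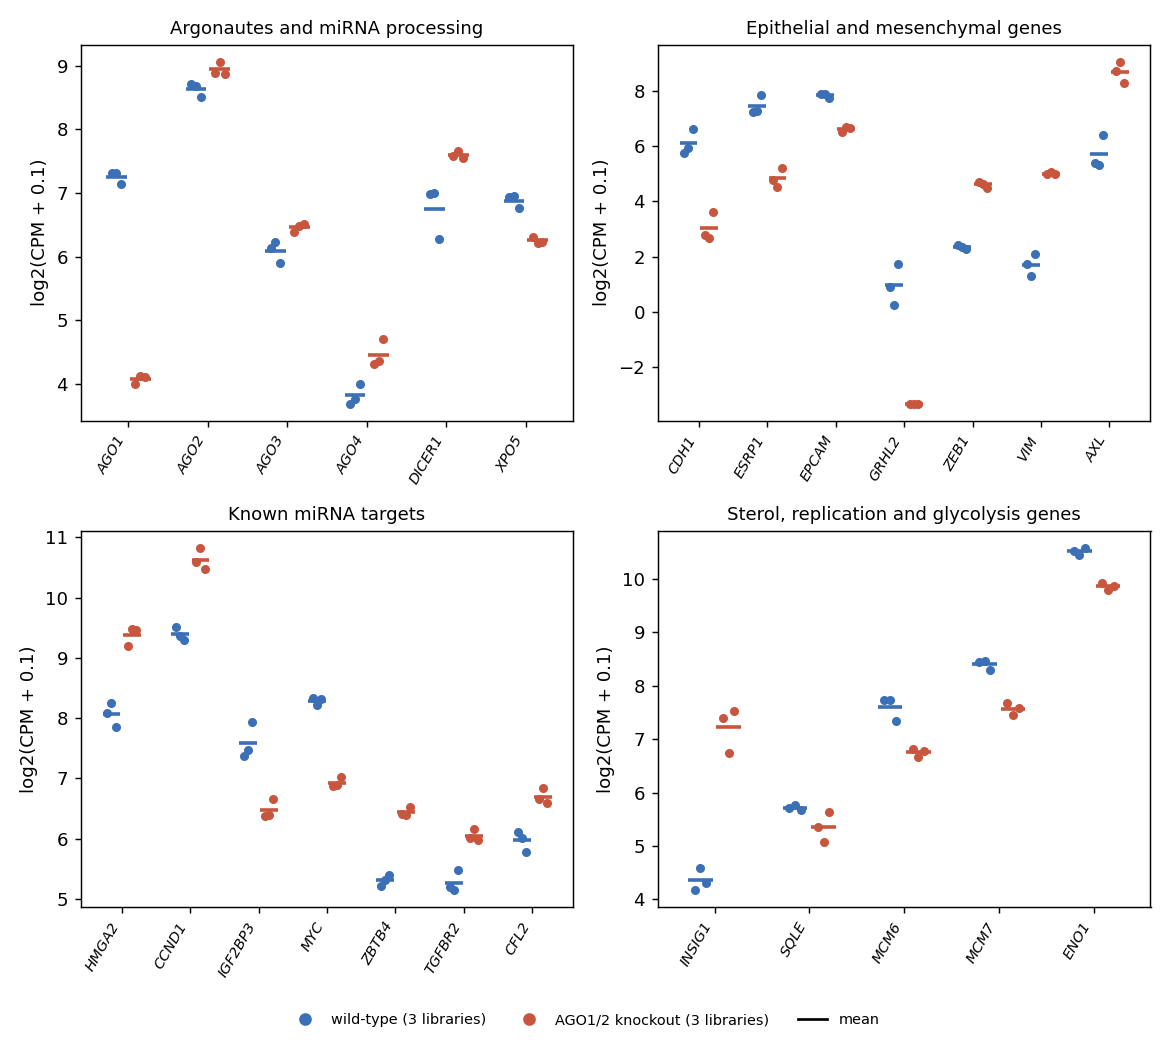
Log2(CPM + 0.1) of named genes in the 3 wild-type (blue) and 3 AGO1/2 knockout (red) cytoplasmic libraries, with group means as lines, for Argonaute and miRNA processing genes, epithelial and mesenchymal genes, known miRNA targets, and sterol, replication and glycolysis genes. AGO1, CDH1 and GRHL2 are lower and ZEB1, VIM, HMGA2 and INSIG1 higher in every knockout library, while AGO2 stays within 362 to 534 CPM.

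Chromosome 8 stood apart from the rest of the genome. Median log2 fold changes lay between −0.13 and 0.07 on the other nuclear chromosomes and at −0.38 on chromosome 8, where 284 of 594 genes (47.8%) were lower and 90 higher. From 70 Mb to the end of that chromosome 218 of 324 genes (67.3%) were lower and 7 higher, with a median of −0.63 and medians of −0.56, −0.58 and −0.59 in the 3 knockout libraries. Before 70 Mb 83 of 270 genes were higher and 66 lower, with a median of 0.02. The boundary was chosen after the values were seen, so these counts are a description with no test. Of 266 windows of 10 Mb with at least 20 genes, 8 had a median of −0.5 or lower, and 6 of them were on chromosome 8. MYC, E2F5, ESRP1, GRHL2, MAL2, ZNF704, PAG1, FABP5, SQLE, RPL7, RPL8 and AGO2 lie in that stretch. Without the genes there, 7 of 17 let-7 targets rose and 2 fell. The median of the stretch was 0.01 in AGO1 and −0.05 in AGO2 knockout cytoplasm, −0.65 in AGO1/2/3 knockout cytoplasm and −0.66 in AGO1/2 knockout nuclei. DNA was not measured in these samples.

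**Figure D5:**
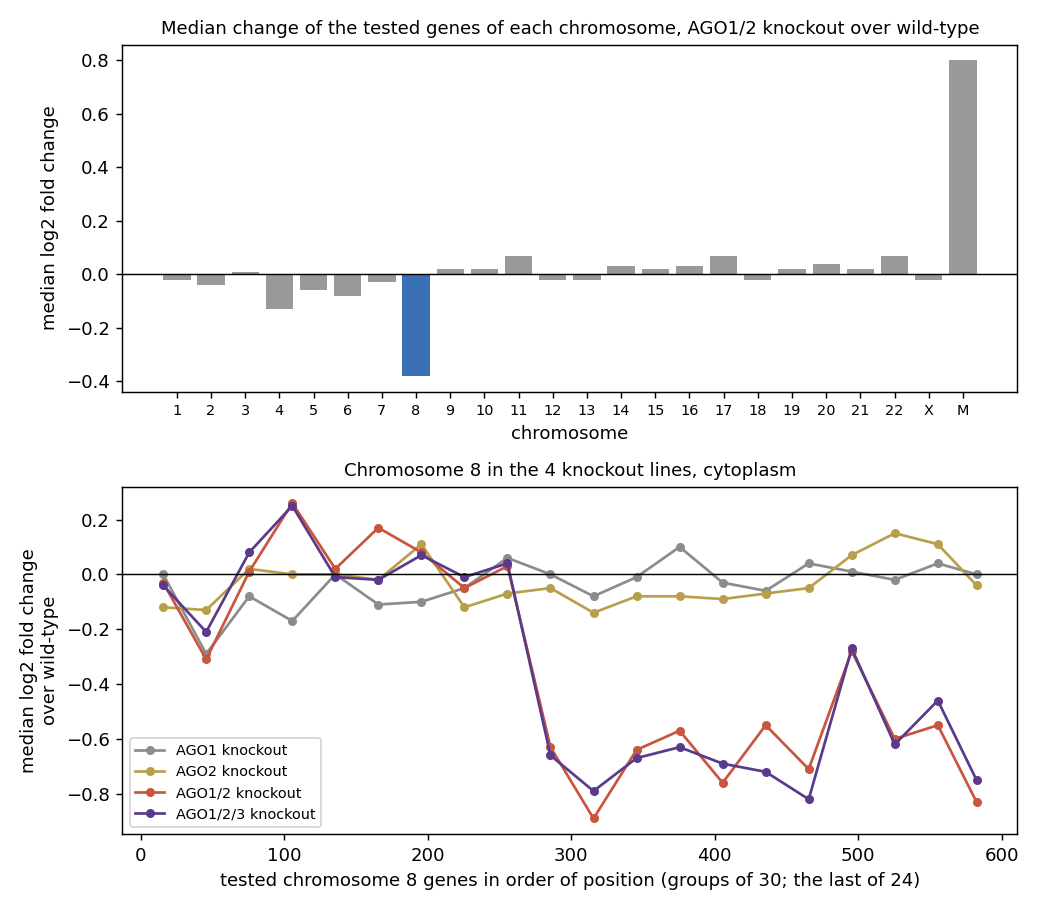
Upper panel, median log2 fold change (AGO1/2 knockout over wild-type cytoplasm) of tested genes on each chromosome, with chromosome 8 in blue. Lower panel, median log2 fold change of successive groups of tested chromosome 8 genes in order of position for each knockout, where the AGO1/2 line and that of AGO1/2/3 lie below 0 along the later part and those of the single knockouts near 0.

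The AGO1/2 knockout was set beside the other cytoplasmic genotypes, all of which share the same 3 wild-type libraries, so their values are given side by side. Against wild-type, 12.4% of genes were called in AGO1 knockout, 16.1% in AGO2 knockout and 38.7% in AGO1/2/3 knockout cytoplasm. Compared directly, 54.3% of genes were called between AGO1/2 and AGO1 knockout cells, 45.8% between AGO1/2 and AGO2 knockout cells and 4.95% (872 genes) between AGO1/2/3 and AGO1/2 knockout cells. HMGA2 was at 0.06, 0.36 and 1.27 against wild-type in AGO1, AGO2 and AGO1/2/3 knockout cells, and AGO1/2 knockout cells stood 1.25 above AGO1 (adjusted p = 1.5e-07) and 0.95 above AGO2 knockout cells (adjusted p = 3.4e-06). For CDH1 the values were −1.28, −0.55 and −2.40, and the log2 fold change of AGO1/2 over AGO1 knockout cells was −1.80 (adjusted p = 3.6e-05). ZEB1 was at 0.69, 0.15 and 1.99, VIM at 1.07, −0.49 and 3.34, and AXL at −0.24, 0.40 and 2.36. Neither HMGA2 (0.05, adjusted p = 0.829), CDH1 (−0.68, adjusted p = 0.13), ZEB1 (0.30, adjusted p = 0.0613) nor VIM (−0.04, adjusted p = 0.903) was called between AGO1/2/3 and AGO1/2 knockout cells, which does not show that they are equal.

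Some genes did differ between AGO1/2/3 and AGO1/2 knockout cells. DCLK1 was 0.90 higher in AGO1/2 knockout cells (adjusted p = 0.0259). Its log2 fold change against wild-type was −6.22 in AGO2 knockout cells (edgeR adjusted p = 1.9e-05). It had only 35, 35 and 84 reads in the wild-type libraries, so the size of that fall is uncertain. SLC2A3 (1.09), the ferritin genes FTH1 (0.59) and FTL (0.73), MT-CO3 (0.66) and the decay factors PATL1 (0.42) and CNOT7 (0.49) were also higher in AGO1/2 knockout cells. MEF2C (−0.99), ETV1 (−0.78), ESRP1 (−0.68), ENO1 (−0.44), MCM7 (−0.43), SQLE (−0.39) and MYC (−0.36) were lower. The median of the mitochondrial mRNAs was −0.03 in AGO1/2/3 knockout cytoplasm, against 0.78 in AGO1/2. The cholesterol genes had medians of 0.45, 0.41 and 0.91 in AGO1, AGO2 and AGO1/2/3 knockout cytoplasm, with 10, 11 and 22 of 24 higher and none lower. Of all 17605 genes tested, 754, 1244 and 3281 were higher in these genotypes. The p53 targets counted 18 of 27 higher in AGO1 knockout cytoplasm, against the 754 of 17605 genes higher there.

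The nuclei of the same lines allowed the cytoplasmic changes to be set against the RNA still in the nucleus. In nuclear RNA 67.6% of 18919 genes were called, 32.9% higher and 34.7% lower. The AGO1/2 effect itself differed between the fractions for 26.5% of 19035 genes in a fit that did not pair the fractions by passage. MALAT1, a lncRNA retained in the nucleus, stood at 13315, 14909 and 19655 CPM in wild-type nuclei and at 925, 924 and 629 CPM in wild-type cytoplasm, which checks the labelled fraction. It stood at 6678, 6494 and 7960 CPM in knockout nuclei and at 1117, 1149 and 1138 CPM in knockout cytoplasm, where it was called higher by 0.46 (0.30 without the wild-type library of passage 29, and −0.12 on unscaled log2(TPM + 1)). The nuclear effect is on a scale where protein-coding genes had a median of 0.17 and lncRNAs of −0.67.

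HMGA2 differed by fraction. Its nuclear level was 843, 874 and 651 CPM in wild-type and 826, 870 and 895 CPM in knockout cells (0.13, adjusted p = 0.201), against the cytoplasmic increase of 1.31, and the difference of effects was 1.27 (adjusted p = 9.7e-04). CCND1 rose in both fractions, by 1.97 in the nucleus, where it went from 487, 451 and 421 CPM to 1729, 2045 and 1544 CPM. The difference of effects was −0.63 (adjusted p = 0.0201). ZEB1 rose by 1.63 in the nucleus and by 2.29 in the cytoplasm, with a difference of effects of 0.75 (adjusted p = 0.0104). CDH1 fell in both, with a difference of −0.81 whose call depended on pairing the fractions by passage (adjusted p = 0.232 unpaired and 3.8e-05 paired). The differences of effects come from a joint fit of both fractions with its own scaling. They therefore need not equal the separate effects subtracted. MCM7 lay in opposite directions, at 369, 356 and 303 CPM in wild-type and 450, 476 and 430 CPM in knockout nuclei (0.40, adjusted p = 1.5e-04), with a difference of effects of −1.14 (adjusted p = 3.5e-04). Of 13311 protein-coding genes tested in both fractions, 5957 were higher and 3378 lower in nuclei, and the list counts are to be read beside these. The cell cycle list as a whole had 21 of 27 genes higher and none lower in nuclei, with a median of 0.46. Cholesterol genes were higher in all 24 cases in nuclei, with a median of 1.29, and the mitochondrial mRNAs had none higher and 4 of 13 lower, with a median of −0.29. The epithelial list counted 10 higher and 9 lower of 22 in nuclei, with a median of 0.07. Listed miR-200 targets counted 9 higher and none lower of 12 in nuclei (median 0.66) and miR-17 targets 12 and 2 of 19 (0.32). The let-7 targets counted 12 and 5 of 19 there (0.31) and the miR-21 targets 6 and 5 of 17 (0.12). The increases of these lists were thus not confined to the cytoplasm.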

How the data were processed

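Cytoplasmic total RNA of AGO1/2 knockout and wild-type HCT116 cells was sequenced paired-end after ribosomal RNA depletion, with nuclear RNA and 3 further knockouts in the same series. The authors filtered reads with NGS-QC-Toolkit, aligned them to hg38 with STAR (2.5.3a per the labels) and quantified transcripts with Salmon (0.11.0 per the labels). The authors' methods and the labels give different versions of both tools. The deposited files hold, per transcript and library, Salmon's estimated counts and TPM, and no replicates were pooled. All 200401 transcripts were looked up in GENCODE release 44. Of these, 196040 matched, 4361 did not, and estimated counts were summed over 58425 genes and rounded.

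One edgeR 4.0.16 quasi-likelihood fit (R 4.3.3) covered the 15 cytoplasmic libraries, so all genotypes shared one estimate of the spread. It used TMM scaling, the filterByExpr filter with a minimum count of 10, and Benjamini-Hochberg adjustment at 0.05 over all genes. The nuclear libraries had a fit of their own, and a further fit over both fractions of AGO1/2 knockout and wild-type cells tested the difference of effects. With 3 libraries a group, precision is set by the spread between them, and counting intervals (95%) cover counting error only. On simulated counts for 17605 genes of the AGO1/2 against wild-type comparison, 46 of 67 genes changed by 1.5-fold, 59 of 67 by 2-fold and 66 of 66 by 4-fold were called, with 6 false calls. The changed genes were drawn from those with a mean count of at least 50, and all other genes were left unchanged. In the data 49.2% of genes were called, so these rates do not carry over to it or to genes of fewer reads. DESeq2 1.42.0, limma 3.58.1 on log2(TPM + pseudocount) and other filters served as alternatives.

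The members and gene lists were chosen with earlier results of these data known. Genes were named by rule. From protein-coding genes called, at 5 CPM or more in the higher group and with libraries that did not overlap, the 12 largest increases and decreases and the 5 most abundant per direction with a log2 fold change of at least 1 were taken, from lncRNAs at 2 CPM the 4 largest each way, and from each list up to 3 called members each way at 2 CPM or more. All Argonaute and miRNA factor genes were named, as were the 4 protein-coding genes with the largest positive and the 4 with the largest negative difference between fractions. List members outside the rule, such as KRT8, CLDN7, BMI1 and IGF2BP1, were added after their values were seen. Y-linked genes and XIST are not named, and some genes that the rule names are not reported here. Sequences are from RefSeq and GRCh38.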

Additional observations from a re-analysis of the deposited data

Results flagged for a closer look

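The AGO1/2 effect differed between cytoplasm and nucleus, by a test of the difference itself in the joint edgeR fit, for the genes below. That fit has its own scaling, so a difference need not equal the effects of the separate fits subtracted. The test of an outlying sample by its gap over the range of its group was not applied to groups of 3 libraries.

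AGO1 RNA had a log2 fold change of −3.19 in the cytoplasm and −1.90 in the nucleus, a difference of −1.20 (adjusted p = 2.2e-04). Its nuclear level was 156, 155 and 130 CPM in wild-type and 38.5, 37.8 and 42.0 CPM in knockout cells. AGO2 was at 0.31 in the cytoplasm and −0.18 in the nucleus, a difference of 0.57 (adjusted p = 0.0167), and the cytoplasmic sign turned on unscaled TPM.

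Among the largest positive differences, ADAM32, a gene of the metalloprotease-like family on chromosome 8, stood at 1.10, 1.28 and 1.26 CPM in wild-type and 3.37, 4.25 and 3.25 CPM in knockout cytoplasm. Its effect was 1.58 in the cytoplasm and −0.89 in the nucleus, a difference of 2.56 (adjusted p = 6.5e-05). PRH1 (1.06 and −1.27, difference 2.42, adjusted p = 1.7e-04), TAS2R14 (0.90 and −1.27, difference 2.26, adjusted p = 1.7e-04) and TAS2R19 (1.39 and −1.41, difference 2.88, adjusted p = 0.00157) overlap or neighbour each other on chromosome 12, so their reads cannot be separated with confidence. TAS2R19 was not called in the cytoplasm (adjusted p = 0.0582) and had at most 0.257 CPM there.

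The largest negative differences were in genes that fell in both fractions. LMAN1, a cargo receptor of the secretory pathway, fell from 126 ± 5.81 CPM to 6.16 ± 0.474 CPM (SD, n = 3 each) in cytoplasm and from 135, 140 and 138 CPM to 22.2, 20.3 and 22.4 CPM in nuclei (−4.36 and −2.67, difference −1.60, adjusted p = 3.5e-05). The DNA helicase gene RECQL fell from 35.6, 35.9 and 40.7 CPM to 2.10, 1.78 and 1.99 CPM in cytoplasm (−4.25, against −2.52 in nuclei, difference −1.64, adjusted p = 1.1e-04). Neither gene was called in AGO1 knockout (−0.03 for LMAN1 and 0.03 for RECQL) or AGO2 knockout cytoplasm (0.16 and −0.18), and both were low in AGO1/2/3 knockout cytoplasm (−4.38 and −4.10). GALNT3 was at −6.83 and −4.24 (difference −2.49, adjusted p = 2.7e-04). KLRK1, which overlaps other transcripts on chromosome 12, was at −5.52 and −2.54 (difference −2.85, adjusted p = 0.0292) from 0.633, 1.12 and 1.06 CPM in wild-type cytoplasm.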

How the results depend on the processing

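The count of called cytoplasmic genes was 8658 with DESeq2, 8672 with its size factors in edgeR, 7602 of 17344 with counts scaled by transcript length, 7835 of 13315 with a mean count of at least 50, 8319 of 32206 with no filter, 6463 of 16119 with only the AGO1/2 knockout and wild-type libraries, 10133 on log2(TPM + 1), 10150 on log2(TPM + 0.1), 8094 on log2(TPM + 1) with TMM scaling (chosen after seeing the data) and 7673 to 9047 when 1 library was left out. The nuclear count of 12780 was 12438 with DESeq2, 11120 with only these genotypes and 11966 to 12860 when 1 library was left out. The count for the difference between fractions, 5041, was 5402 with DESeq2, 3734 to 5440 when 1 library was left out and 8799 with a replicate block on the passage number. Deviations of same-numbered cytoplasmic and nuclear libraries from their group means had correlations of 0.182, 0.161 and 0.435 in wild-type and of −0.0219, 0.151 and 0.248 in knockout cells. With other numbers the mean correlations were −0.276 to 0.011. Deviations from a group mean cancel within the group, so the second set of values largely follows from the first and adds no separate evidence. Whether same-numbered fractions came from the same culture was not tested. Since 1 of the 6 pairs was not above 0.1, the numbers were not taken to pair them, and the paired count is given as an alternative. No paired analysis was possible because the cytoplasmic groups compared share no passage number. AGO2 moved from 0.31 to 0.10 with length-scaled counts and to 0.10 on TMM-scaled TPM, both with no call, and to −0.30 on log2(TPM + 1) and −0.31 on log2(TPM + 0.1). With a pseudocount of 1 and of 0.1 on unscaled TPM, other small increases turned as well: PRKRA to −0.01 and −0.01, COL12A1 to −0.06 and −0.07, BIRC5 to −0.02 and −0.02, TYMS to −0.08 and −0.08, CCNB2 to −0.15 and −0.15, SDF2L1 to −0.02 and −0.01, XBP1 to −0.04 and −0.04, MALAT1 to −0.12 and −0.12, and H3C6 to −0.20 and −0.23. The median of all genes was −0.20 on unscaled log2(TPM + 1), −0.36 on unscaled log2(TPM + 0.1) and −0.01 on TMM-scaled log2(TPM + 1). The cause of these turns was not tested. Of 2667 values of named genes under an alternative, 2489 kept direction and call, 141 lost the call, 19 gained one and 18 turned. Of 433 list medians 318 moved by less than the spread between libraries and 115 by more. Of the 12 colon families the number above 0 was 6 to 8 over the alternatives. RNA depth was lower in wild-type libraries, which limits genes of few reads such as LIN28B and SNAI2.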
